A study of Mus musculus with 8 samples.

Results

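The genes described here encode 10 acute phase proteins, which the liver secretes in amounts that change during inflammation, infection or injury: Saa1, Saa2, Saa4, Orm1, Orm2, Lcn2, Hp, Hpx, Apcs and A2m. They were chosen by symbol, and all 10 were in the table of 14317 mouse genes and passed the minimum mean value of 10 that left 14312 genes for testing. RNA was measured in whole liver of adult female mice on a Western diet (WD), rich in palm oil fat, fructose and cholesterol, for 8.5 weeks. The 4 Con-DHT mice carried a 10 mm silastic pellet filled with dihydrotestosterone (DHT), an androgen that cannot be aromatized to estrogen, and the 4 Con-Veh mice carried an empty pellet. The labels give the genotype of every mouse as WT, and according to the study's methods all were fasted overnight before the liver was taken. The samples came from 1 experiment with 1 library per mouse, and the replicate numbers below are those of the labels.

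Interleukin-6 acts through its receptor and the transcription factor STAT3, and interleukin-1 and TNF act through NF-kB, to raise transcription of acute phase genes in hepatocytes, with C/EBP factors binding many of their promoters. The serum amyloid A proteins Saa1 and Saa2 are the strongly inducible ones and travel on high density lipoprotein, whereas Saa4 is made constitutively. Orm1 and Orm2 encode alpha-1-acid glycoproteins, Lcn2 encodes a protein that sequesters bacterial siderophores, Hp and Hpx encode the scavengers of free hemoglobin and heme, and Apcs encodes serum amyloid P, a pentraxin. A2m encodes alpha-2-macroglobulin, a protease trap that is a major acute phase protein in rats but a minor liver product in mice, in which Pzp and the murinoglobulins are the abundant members of that family.

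The values are normalized read counts, that is, reads per gene divided by 1 size factor per library, on 13123962 to 17815944 reads in genes per library. The 8 hepatocyte markers examined, among them Alb and Apoa1, were present in every library. Between the groups limma and edgeR called 0 of them, against 7.21% and 7.15% of all genes, and DESeq2 called 1, against 11.0%. By limma 0 had an unadjusted p of at most 0.05, against 23.2% of all genes. Con-Veh replicates 1 and 2 stood apart from the other 6 libraries in the acute phase genes. Results of the members and of some other genes, not all, are given with and without them. Tests used limma on log2(value + 1) over all 14312 genes, p-values were adjusted by Benjamini-Hochberg and the threshold was 0.05, which called 1032 genes (7.21%). Of these, 374 (2.61% of the genes tested) were lower in Con-DHT.

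Promoter sequences are shown for the inducible genes Saa1, Saa2 and Orm2, which varied together from library to library, and for Hpx, whose range was much narrower. Each is the stretch from 250 to 51 bases before the annotated start of transcription in RefSeq (build GRCm38.p6), 5′ to 3′ on the strand of the gene, with matches to the C/EBP motif TTGCNNAA on either strand in capitals. They lie at chr7:46743031-46743230 (minus strand, Saa1), chr7:46751583-46751782 (plus, Saa2), chr4:63362199-63362398 (plus, Orm2) and chr7:105600167-105600366 (minus, Hpx), and no annotated exon overlaps them.
Saa1: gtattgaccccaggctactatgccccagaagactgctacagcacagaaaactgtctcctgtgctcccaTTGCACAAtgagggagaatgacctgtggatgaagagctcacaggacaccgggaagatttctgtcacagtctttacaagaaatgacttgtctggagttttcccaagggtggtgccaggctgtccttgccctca
Saa2: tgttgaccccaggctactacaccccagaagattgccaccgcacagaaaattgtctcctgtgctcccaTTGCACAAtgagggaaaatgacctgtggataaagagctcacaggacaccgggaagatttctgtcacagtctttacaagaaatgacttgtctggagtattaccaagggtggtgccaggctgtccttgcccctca
Orm2: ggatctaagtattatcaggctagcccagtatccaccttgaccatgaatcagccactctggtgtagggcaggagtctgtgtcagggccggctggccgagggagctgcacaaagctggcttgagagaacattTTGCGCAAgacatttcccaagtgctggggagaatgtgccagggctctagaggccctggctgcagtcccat
Hpx: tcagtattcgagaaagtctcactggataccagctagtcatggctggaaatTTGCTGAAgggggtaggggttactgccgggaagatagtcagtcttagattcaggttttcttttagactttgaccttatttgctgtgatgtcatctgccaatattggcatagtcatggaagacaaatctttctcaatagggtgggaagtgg

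The stretches of Saa1 and Saa2, genes that lie close together in opposite orientation, were identical at 188 of 201 aligned positions (93.5%). Promoters were given for 7 of the 10 genes, and in the 250 bases before the start the C/EBP letters TTGCNNAA were found in 6 of them (Saa1, Saa2, Saa4, Orm2, Lcn2 and Hpx, 85.7%), against 9.56% of 32851 promoters. The match began 182 bases before the start in Saa1, 183 in Saa2, 120 in Orm2 and 200 in Hpx. The letters TTCNNNGAA, a core bound by STAT factors, were in the Apcs promoter only (1 of 7, against 7.02% of all), and the loose NF-kB pattern GGGNNNNNCC was in 4 of 7 (57.1%) against 45.8% of all. The 3 patterns do not overlap each other in these promoters, and a match is a run of letters, not evidence of binding.

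The serum amyloid A genes Saa1 (ENSMUSG00000074115) and Saa2 (ENSMUSG00000057465), both on chromosome 7, had the widest range. Saa1 values in Con-Veh were 5476, 19178, 337 and 277 in replicates 1 to 4, and in Con-DHT they were 520, 478, 3054 and 285. The values thus fell into high and low ones inside each group, with Con-Veh replicates 1 and 2 and Con-DHT replicate 3 high, and the groups overlapped. The mean was 6317 ± 8913 (SD, n = 4) in Con-Veh and 1084 ± 1317 in Con-DHT, and the log2 fold change of Con-DHT over Con-Veh was -1.38 (SE 1.29, limma adjusted p = 0.58).

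Saa2 was high in the same 3 libraries, at a lower level. It was at 1920.5, 11404, 181 and 156 in Con-Veh and at 134, 136, 1077 and 60.9 in Con-DHT, a 187-fold span over the 8 libraries. The log2 fold change was -2.24 (SE 1.32, limma adjusted p = 0.35), and the groups overlapped here too. Within each library, 1.68 to 2.85 reads fell on Saa1 for each read on Saa2 in Con-Veh and 2.84 to 4.68 in Con-DHT, a ratio that the size factor cannot change (exact two-sided permutation test p = 0.057, 0.086 adjusted over the 3 ratios compared). The transcripts of the 2 genes were 87.5% identical, but no stretch of 150 bases, the length of a read, was shared exactly.

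Saa4 (ENSMUSG00000040017, chromosome 7), the constitutive member, did not follow its neighbors. Its values were 4200, 10888, 3950 and 4141 in Con-Veh and 3171, 4785, 3415 and 1663 in Con-DHT. Con-Veh replicate 1, high in Saa1 and Saa2, was level with replicates 3 and 4 in Saa4, while replicate 2 was 2.28 times the next library. The log2 fold change was -0.78 (SE 0.37, limma adjusted p = 0.24).

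**Figure D1:**
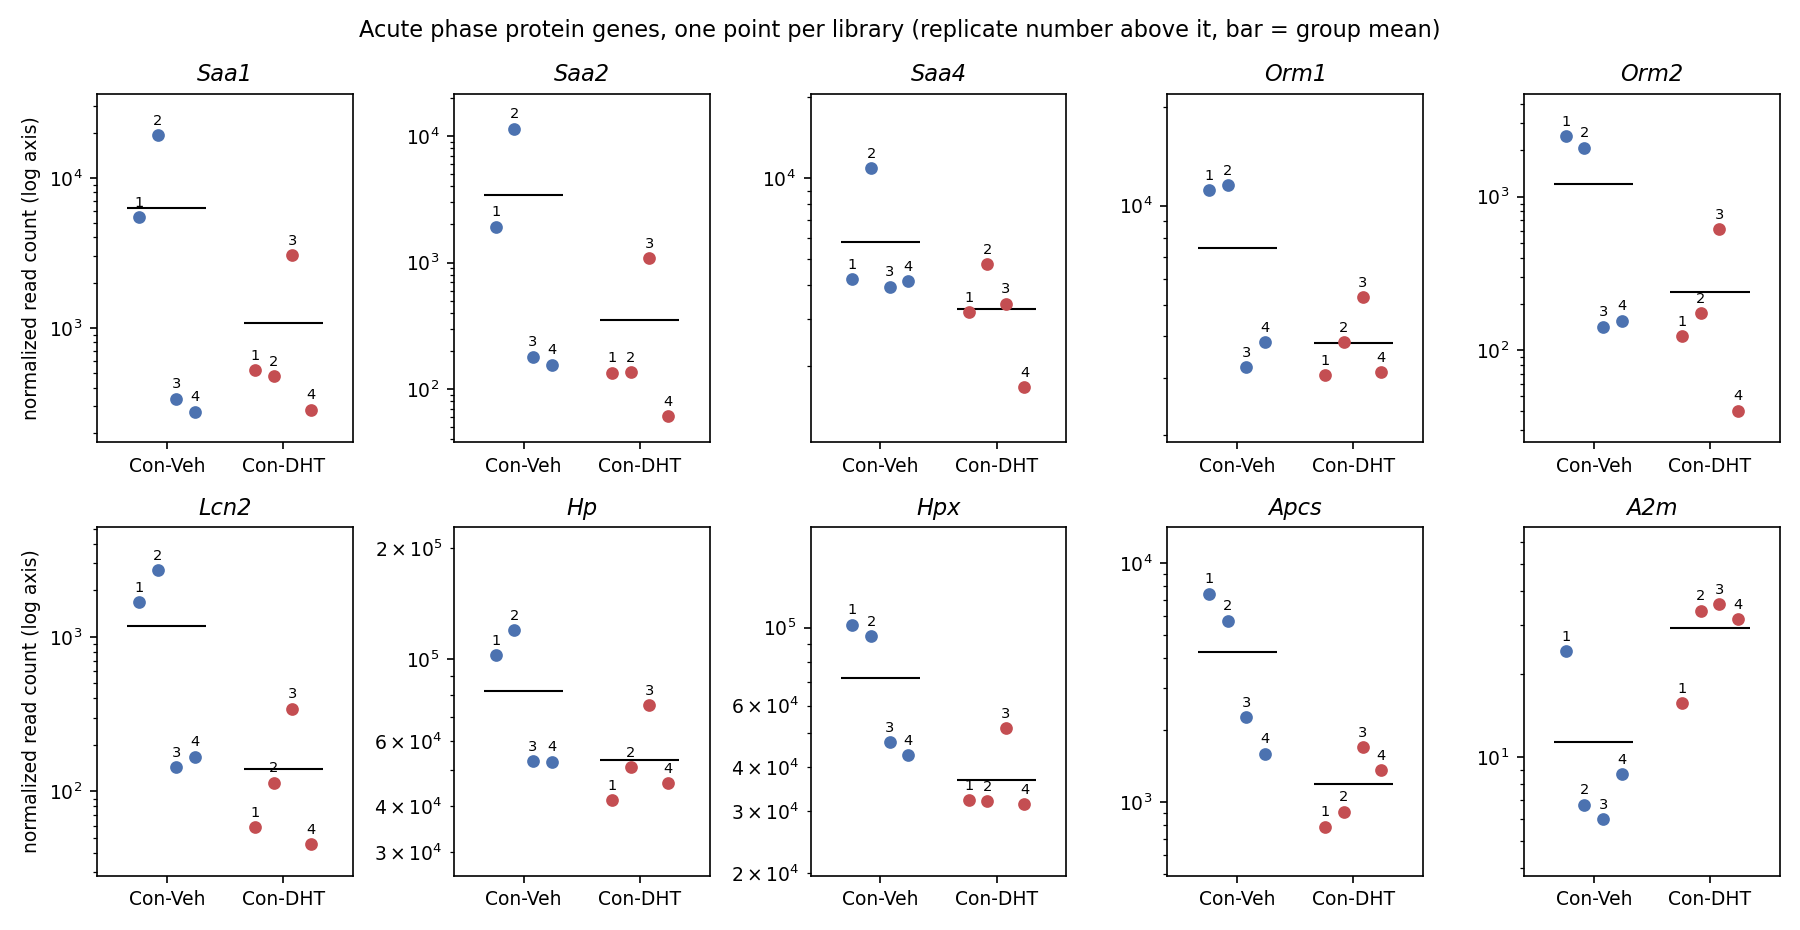
Normalized read counts of the 10 acute phase protein genes (log axis, a different range in each panel) in 4 Con-Veh (blue) and 4 Con-DHT (red) livers, 1 point per library with its replicate number, the bar being the group mean. Con-Veh replicates 1 and 2 are the highest of the 8 libraries in 8 of the 10 genes, Con-DHT replicate 3 is the highest of its group in 9, and in no gene are the groups separate.

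The alpha-1-acid glycoprotein genes Orm1 (ENSMUSG00000039196) and Orm2 (ENSMUSG00000061540) lie on chromosome 4. Orm1 was at 11137, 11552, 3226 and 3844 in Con-Veh and at 3051, 3848, 5276 and 3120 in Con-DHT. Orm2 was at 2466, 2081, 142 and 155 in Con-Veh and at 123, 174, 614 and 40.2 in Con-DHT. In both genes Con-Veh replicates 1 and 2 were more than 2 times every other library, and Con-Veh replicates 3 and 4 lay within the range of Con-DHT.

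The log2 fold change was -0.76 for Orm1 (SE 0.41, limma adjusted p = 0.29) and -1.93 for Orm2 (SE 1.07, limma adjusted p = 0.32). Orm2 varied more than Orm1, so that the ratio of Orm1 to Orm2 reads was 4.52 and 5.55 in Con-Veh replicates 1 and 2, 8.59 in Con-DHT replicate 3, and between 22.1 and 77.6 in the other 5 libraries. The ratio did not separate the groups (exact permutation p = 0.23, also after adjustment over 3 ratios). The Orm1 and Orm2 transcripts were 91.0% identical, with no shared stretch of 150 bases.

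Lcn2 (ENSMUSG00000026822, chromosome 2) was at 1674, 2708, 144 and 168 in Con-Veh and at 58.9, 114, 343 and 45.7 in Con-DHT. Its Con-Veh replicate 1 was 4.88 times the highest of the other 6 libraries, which was Con-DHT replicate 3. Its log2 fold change was the lowest of the 10 genes, -2.49 (SE 0.98, limma adjusted p = 0.16), with an 8.36-fold difference between the group means. DESeq2's Wald test on the reads gave an adjusted p of 0.045, and edgeR's quasi-likelihood test gave 0.092.

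Hp (ENSMUSG00000031722, chromosome 8) and Hpx (ENSMUSG00000030895, chromosome 7) were the most abundant members. Hp was at 102455, 120069, 52889 and 52874 in Con-Veh and at 41524, 50968, 74999 and 46158 in Con-DHT. Hpx was at 101905, 94691, 47240 and 43255 in Con-Veh and at 32188, 32050, 51817 and 31451 in Con-DHT. The same 3 libraries were high, by about 2-fold in Con-Veh, where the within-group span was 2.27-fold for Hp and 2.36-fold for Hpx against 69.3-fold for Saa1.

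The log2 fold change was -0.56 for Hp (SE 0.30, limma adjusted p = 0.31) and -0.89 for Hpx (SE 0.30, limma adjusted p = 0.11). The ratio of Hp to Hpx reads was 1.01 to 1.27 in Con-Veh and 1.29 to 1.59 in Con-DHT, and here the groups did not overlap (exact permutation p = 0.029, the smallest that 4 against 4 allows, and 0.086 adjusted over the 3 ratios). The ratios were chosen after the values had been seen. Together these genes took 0.620% to 1.40% of a library's reads in Con-Veh and 0.519% to 0.870% in Con-DHT.

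Apcs (ENSMUSG00000026542, chromosome 1) came closest to the threshold. Its values were 7435, 5738, 2271 and 1595 in Con-Veh and 789, 912, 1696 and 1363 in Con-DHT, and only Con-Veh replicate 4 (1595) and Con-DHT replicate 3 (1696) crossed. The mean was 4260 ± 2788 (SD, n = 4) in Con-Veh and 1190 ± 418 in Con-DHT. Its log2 fold change was -1.63 (SE 0.45, limma adjusted p = 0.058). The adjusted p was 0.039 with edgeR and 0.0092 with DESeq2.

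A2m (ENSMUSG00000030111, chromosome 6) had a higher mean in Con-DHT, unlike the 9 others, and was close to the lower limit of the table. It was at 24.2, 6.76, 5.99 and 8.70 in Con-Veh and at 15.7, 33.9, 35.7 and 31.5 in Con-DHT, from 6 to 35 reads per library. Con-Veh replicate 1 lay above Con-DHT replicate 1, and the other 3 Con-DHT libraries lay above all of Con-Veh. The log2 fold change was 1.43 (SE 0.44, limma adjusted p = 0.079), and DESeq2 gave an adjusted p of 0.042.

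By level per 1000 bases of the main transcript, the median in Con-DHT ran from Hp (36106) and Hpx (21427) through Orm1 (4495), Saa4 (1573), Apcs (1171), Saa1 (819), Saa2 (208), Orm2 (192) and Lcn2 (94.6) to A2m (7.10). In Con-DHT the ranges of neighbors in this order overlapped except between Hpx and Orm1, between Orm1 and Saa4, and between Lcn2 and A2m. In Con-Veh the highest library put Saa1 at 31490 and Saa2 at 17490 per 1000 bases, above Orm1 (14906). The order of the inducible genes thus differed between libraries.

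Counted over the list, 0 of the 10 genes passed limma's test, 4 had an unadjusted p of at most 0.05 (Lcn2, Hpx, Apcs and A2m), 9 had a lower and 1 a higher mean log2 value in Con-DHT, and 0 had groups that did not overlap. Over all genes tested, 7.21% passed, 23.2% had an unadjusted p of at most 0.05, 51.5% had a lower mean and 15.1% did not overlap. The 10 log2 fold changes had a median of -1.13, against -0.008 for all genes. edgeR called 1 member (Apcs, lower) against 7.15% of all genes, and DESeq2 called 3 (Apcs and Lcn2 lower, A2m higher) against 11.0% of all genes.

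The spread among Con-Veh mice was what set these genes apart from most others. The SD of the log2 values over the 4 Con-Veh libraries ranked 6 (Saa1), 8 (Saa2), 16 (Orm2) and 21 (Lcn2) from the top among 14312 genes, and its median was 1.02 for the 10 genes against 0.188 for all. In Con-DHT the same medians were 0.584 and 0.193, with Saa2 ranking 47 and Orm2 68. Con-Veh replicates 1 and 2 were the top of the 8 libraries in 8 of 10 members (80.0%) and in 1005 of all genes tested (7.02%). Each of these 2 libraries was above 2 times every other library in 4 members (Lcn2, Orm2, Apcs and Orm1) and in 17 of all genes (0.119%). The 2 libraries were singled out after the members' values had been seen, so both shares among the members describe that choice and test nothing.

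Without Con-Veh replicates 1 and 2, an alternative added after the data had been seen, the log2 fold change became 1.16 for Saa1, 0.15 for Saa2, 0.08 for Orm1 and 0.04 for Orm2, all on the other side of 0. It was -0.61 for Lcn2 (limma adjusted p = 0.70), -0.02 for Hp, -0.33 for Hpx, -0.41 for Saa4 and -0.74 for Apcs (adjusted p = 0.25). A2m, at 1.81, passed (adjusted p = 0.049). With Con-DHT replicate 3 left out as well, the 3 libraries that carried high Saa1 and Saa2 were gone, and the log2 fold change was 0.44 for Saa1, -0.69 for Saa2, -0.63 for Orm2, -1.19 for Lcn2 and -0.08 for Orm1, with 8 of the 10 genes lower. A2m was then at 1.69 (adjusted p = 0.10), and limma called 0 of the 10.

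**Figure D2:**
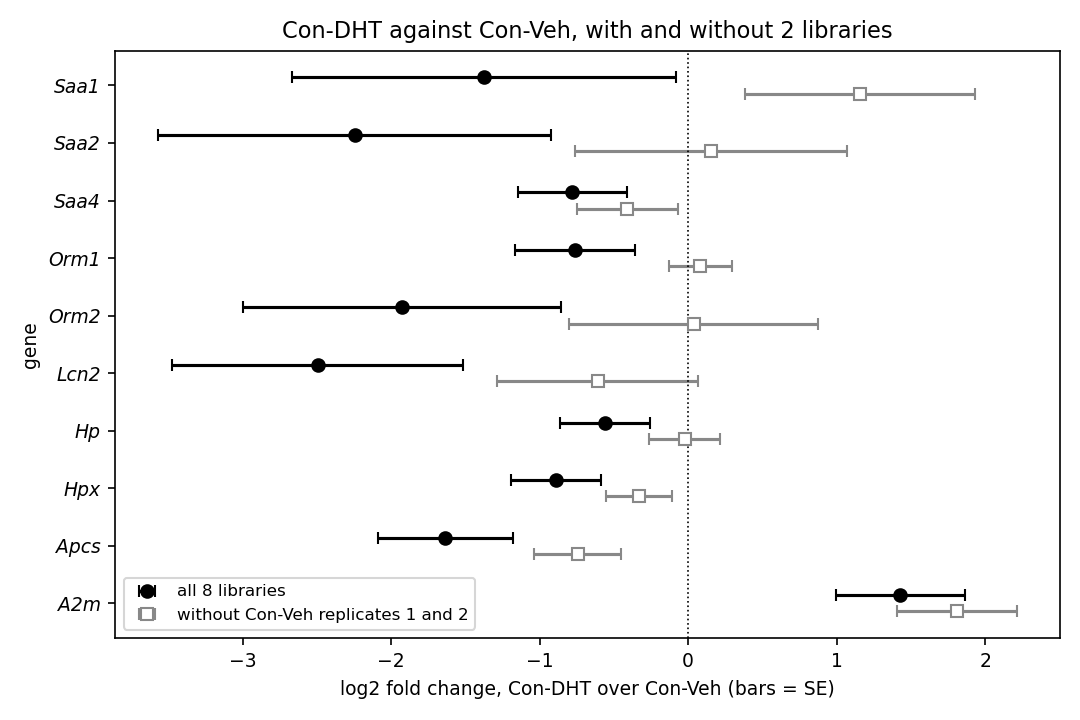
Log2 fold change of Con-DHT over Con-Veh with its SE for each member, from all 8 libraries (black) and without Con-Veh replicates 1 and 2 (open squares). Saa1, Saa2, Orm1 and Orm2 lie below 0 with all libraries and above 0 without these, whereas Saa4, Lcn2, Hpx and Apcs stay below 0 and A2m stays above it.

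Among 26 other positive acute phase genes of the liver, 5 fell in Con-DHT by limma, none rose, and 24 had a lower mean. The 5 were Lbp, which encodes the lipopolysaccharide binding protein, Mbl2, a mannose binding lectin, Serpina3m, a protease inhibitor, Cfb, complement factor B, and Cp, ceruloplasmin. Lower calls made up 2.61% of all genes, and 51.5% of all genes had a lower mean. All Con-DHT libraries were below all Con-Veh libraries in 8 of the 26, against 6.62% of all genes. In these genes Con-Veh replicates 1 and 2 were the top of the 8 libraries in 19 of 26. Without these 2 libraries limma called 510 of all 14312 genes, 108 lower and 402 higher. Of the 26 it called 4, 3 lower and 1 higher. The higher one was C9, named after its values were seen. Its log2 fold change was then 0.89 (limma adjusted p = 0.020), against 0.39 (0.40) with all libraries.

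Lbp was at 5189, 5645, 3676 and 3817 in Con-Veh and at 1946, 2230, 2516 and 2710 in Con-DHT (log2 fold change -0.95, SE 0.15, limma adjusted p = 0.0056). Mbl2 was at 4311, 5104, 4957 and 4364 in Con-Veh and at 2173, 2629, 3400 and 2894 in Con-DHT (-0.77, SE 0.13, adjusted p = 0.0061). In both genes all 4 Con-DHT mice were lower, and both stayed below the threshold without Con-Veh replicates 1 and 2, at adjusted p of 0.029 for Lbp and 0.044 for Mbl2.

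Serpina3m (4458 ± 888 against 2255 ± 635, SD, n = 4, adjusted p = 0.015), Cfb (log2 fold change -0.56, adjusted p = 0.028) and Cp (-0.44, adjusted p = 0.032) also had groups that did not overlap, but without the 2 libraries their adjusted p were 0.13, 0.12 and 0.20, at log2 fold changes of -0.76, -0.31 and -0.29. Among the genes that did not pass, Hamp2, a homolog of the iron hormone hepcidin, had the lowest log2 fold change (-2.80, SE 0.83, adjusted p = 0.073). Its order was different, at 78.1, 206, 623 and 682 in Con-Veh, with replicates 3 and 4 high and not 1 and 2, and at 43.2, 154, 38.8 and 9.78 in Con-DHT. Hamp2 passed with DESeq2 (adjusted p = 0.042), and with limma without Con-Veh replicates 1 and 2 (-3.98, adjusted p = 0.038). Fgl1, a fibrinogen-like liver protein, was at 28807, 26984, 8151 and 7939 in Con-Veh and at 3031, 3413, 10740 and 4990 in Con-DHT (-1.63, SE 0.51, adjusted p = 0.087), high in the same 3 libraries as the inducible members. Without Con-Veh replicates 1 and 2 the log2 fold change of Fgl1 was -0.73 (limma adjusted p = 0.44). With Con-DHT replicate 3 left out as well it was -1.11, and Fgl1 passed (limma adjusted p = 0.032).

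**Figure D3:**
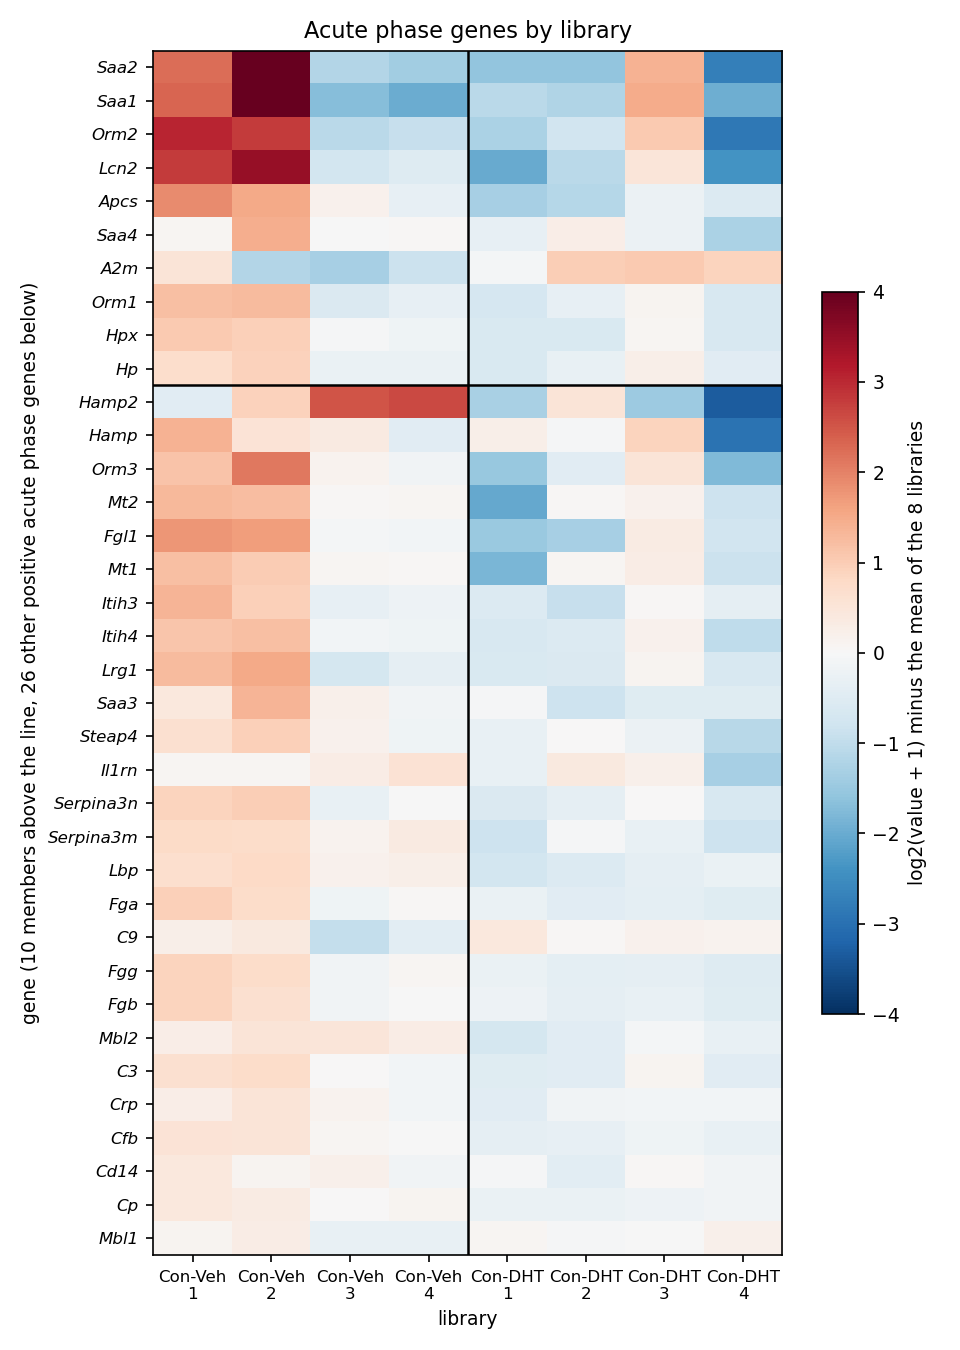
Log2(value + 1) minus the mean of the 8 libraries (color, -4 to 4, blue low and red high) for the 10 members and 26 other positive acute phase genes (rows, ordered by range) in each library (columns). Con-Veh replicates 1 and 2 are red in most rows, Con-DHT replicate 3 is red in Saa1, Saa2 and Orm2, and Hamp2 is red in Con-Veh replicates 3 and 4.

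Of 10 negative acute phase genes, whose proteins fall in plasma during inflammation, 3 fell in Con-DHT, against 2.61% of all genes tested, and none rose. Trf, transferrin, had a log2 fold change of -0.75 (limma adjusted p = 0.013), Fetub, a fetuin, of -0.40 (adjusted p = 0.015) and Serpinc1, antithrombin, of -0.38 (adjusted p = 0.041). Trf was at 89813, 82970, 68736 and 71462 in Con-Veh and at 41997, 45475, 52919 and 44955 in Con-DHT, so that Con-Veh replicates 1 and 2 were again the highest. Alb was at 930629, 539803, 968019 and 1275381 in Con-Veh and at 658042, 685092, 549197 and 671330 in Con-DHT (-0.47, adjusted p = 0.52), with Con-Veh replicate 2 lowest of all. Ahsg, fetuin A, had a log2 fold change of -0.31 (adjusted p = 0.32). Without Con-Veh replicates 1 and 2 the log2 fold change was -0.60 for Trf (adjusted p = 0.088), -0.32 for Fetub (0.12) and -0.37 for Serpinc1 (0.17).

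Of 8 cytokines that induce acute phase genes, 3 were in the table (Il1a, Il1b and Clcf1) and none of them passed limma, edgeR or DESeq2 or had an unadjusted p of at most 0.05 by limma. Il1a was at 38.5 to 74.3 in Con-Veh and at 32.6 to 47.1 in Con-DHT, and Clcf1 at 23.2 to 55.9 and at 26.1 to 42.9. Il6, Tnf, Lif, Osm and Il22 were not among the rows of the table, which holds no gene with fewer than 81 reads in total. The level of these signals in liver RNA could thus not be compared.

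Of 25 receptors and signalling genes tested, 1 passed limma's test, against 7.21% of all genes. Stat3, named after its values were seen, was at 2719, 2753, 1433 and 1418 in Con-Veh and at 1299, 1312, 1484 and 1178 in Con-DHT (log2 fold change -0.59, limma adjusted p = 0.15, edgeR 0.11, DESeq2 0.035). Without Con-Veh replicates 1 and 2 the log2 fold change of Stat3 was -0.12 (limma adjusted p = 0.62). Its Con-Veh replicates 1 and 2 were above every other library, as in 4 of the 25 genes (16.0%). Socs3, which encodes a feedback inhibitor of this pathway and was likewise named after its values were seen, did not share the order, at 434, 309, 346 and 142 in Con-Veh and at 207, 148, 395 and 225 in Con-DHT (-0.32, adjusted p = 0.65). Cebpb, a C/EBP factor gene also named after its values were seen, was at 3479, 2750, 1306 and 938 in Con-Veh. In Con-DHT it was at 1889, 2340, 2317 and 2740 (0.31, limma adjusted p = 0.65). Without Con-Veh replicates 1 and 2 Cebpb was higher in Con-DHT (1.06, limma adjusted p = 0.014). Il22ra1, the interleukin-22 receptor chain of hepatocytes, was at 122, 50.2, 82.9 and 82.7 in Con-Veh and at 24.5, 40.6, 45.9 and 63.0 in Con-DHT (-0.95, adjusted p = 0.10). Il1r1, the interleukin-1 receptor, was at 1990, 2138, 1264 and 815 and at 762, 1622, 824 and 642 (-0.69, adjusted p = 0.26), and at -0.17 (limma adjusted p = 0.83) without Con-Veh replicates 1 and 2.

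Of 8 genes for uptake or clearance of these proteins, 1 fell and 2 rose, against 7.21% of all genes called in either direction. Hmox1, the heme oxygenase that degrades heme taken up with hemopexin, fell by 0.56 on the log2 scale (limma adjusted p = 0.021), with all Con-DHT libraries (305 to 363) below all Con-Veh libraries (423 to 630), and did not pass without Con-Veh replicates 1 and 2 (-0.45, adjusted p = 0.099). Slc22a17, which encodes a receptor for the Lcn2 protein, rose from 58.0 ± 15.6 in Con-Veh to 93.6 ± 6.12 (SD, n = 4), or by 0.71 on the log2 scale (adjusted p = 0.041), again with no overlap. This call was kept in 1 of the 8 fits that left out 1 library (adjusted p up to 0.107), and without Con-Veh replicates 1 and 2 the log2 fold change was 0.56 (adjusted p = 0.24). The adjusted p was 0.055 with edgeR and 0.017 with DESeq2. Lrp2, megalin, also a receptor for Lcn2, was at 22.0, 0, 3.00 and 0 in Con-Veh and at 12.8, 39.7, 82.7 and 95.7 in Con-DHT (log2 fold change 3.90, adjusted p = 0.042), a difference of low values in which the groups overlapped and which neither edgeR (0.065) nor DESeq2 (0.18) called. Cd36, a scavenger receptor, had a log2 fold change of -0.84 (adjusted p = 0.078 with limma, 0.11 with edgeR and 0.032 with DESeq2) and Fpr2, a receptor for serum amyloid A on leukocytes, of -0.69 (adjusted p = 0.30).

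Of the 3 relatives of A2m on chromosome 6, 1 rose and 2 did not pass, against 7.21% of all genes called in either direction. Mug1, a murinoglobulin, rose from 46082 ± 3757 to 75121 ± 11110 (SD, n = 4; log2 fold change 0.70, SE 0.15, limma adjusted p = 0.020), with no overlap, and was at 0.60 (adjusted p = 0.14) without Con-Veh replicates 1 and 2. Pzp was at 84574, 76747, 63042 and 62759 in Con-Veh and at 57797, 53022, 53708 and 48346 in Con-DHT (-0.42, adjusted p = 0.12), lower in every Con-DHT library, and Mug2 had a log2 fold change of -0.36 (adjusted p = 0.23). Without Con-Veh replicates 1 and 2 Pzp was at -0.24 (limma adjusted p = 0.46). At a mean of 29.2 in Con-DHT, A2m lay far below these relatives, whose transcripts are of like length.

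Markers of other liver cells are given beside these results, and their part in them was not tested. In bulk tissue, fewer cells of a type and less RNA per cell cannot be told apart. Of 14 neutrophil markers 3 were in the table, and their summed value was 70.9 to 132 in Con-Veh and 52.1 to 75.0 in Con-DHT. The defining markers S100a8, S100a9, Ly6g and Mpo were not among its rows. Prtn3, a neutrophil granule protease, was at 62.7, 79.1, 5.99 and 13.1 in Con-Veh and at 7.85, 0.968, 3.06 and 7.61 in Con-DHT (-2.42, SE 0.80, limma adjusted p = 0.10), high in the same 2 mice as the acute phase genes. Limma and edgeR called 0 of the 3 neutrophil genes, against 7.21% and 7.15% of all genes. DESeq2 called Prtn3 (adjusted p = 0.0019), against 11.0% of all genes. By limma 1 of the 3 (Prtn3) had an unadjusted p of at most 0.05, against 23.2% of all genes. Csf3r did not share the order of Prtn3, at 49.5, 37.6, 57.9 and 53.1 in Con-Veh. Ltf was at 19.8, 9.65, 6.99 and 6.09 in Con-Veh, with replicates 1 and 2 above 3 and 4, but 3 of the 4 Con-DHT libraries (27.5, 21.3 and 23.9) were above all of Con-Veh.

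All 10 Kupffer cell and macrophage markers had lower means in Con-DHT, against 51.5% of all genes. Of the 10, 7 fell by limma (Cd5l, Vsig4, C1qa, C1qb, C1qc, Cd68 and Clec4f), against 2.61% of all genes. The paper, by staining liver sections for a macrophage protein rather than RNA, reports inflammation unaltered by DHT. The summed value of the 10 markers was 9352, 9964, 8171 and 9130 in Con-Veh and 7250, 5473, 6159 and 5796 in Con-DHT, with no overlap. Cd5l, a macrophage protein, had the lowest log2 fold change of the 7 that fell (-0.86, SE 0.13, adjusted p = 0.0045) and Clec4f, a lectin of Kupffer cells, the smallest in size (-0.40, adjusted p = 0.039). Adgre1 (-0.42, adjusted p = 0.095), Marco (-0.59, adjusted p = 0.15) and Timd4 (-0.65, adjusted p = 0.10) did not pass. Con-Veh replicates 1 and 2 were the top of the 8 libraries in 6 of the 10 markers, against 7.02% of all genes, and had the 2 highest sums. Without them limma called 1 of the 10, Cd5l (adjusted p = 0.046), and 510 of all 14312 genes, 108 of them lower. All 10 markers still had lower means in that fit, which had fewer libraries. Their median log2 fold change was -0.42, against -0.54 with all libraries.

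**Figure D4:**
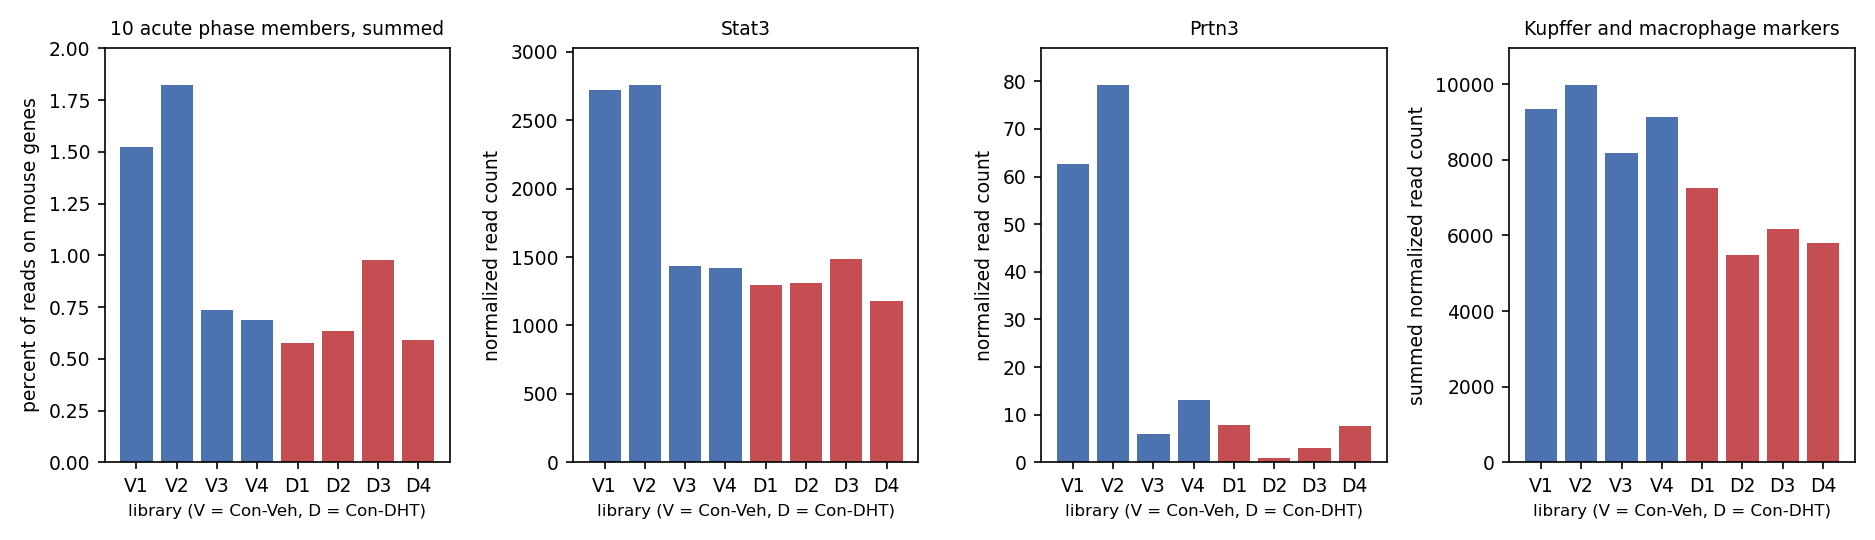
Bars from 0 for each library (V1 to V4, Con-Veh replicates, blue; D1 to D4, Con-DHT replicates, red): the percent of reads on the 10 members, the normalized read counts of Stat3 and Prtn3, and the summed normalized read count of 10 Kupffer cell and macrophage markers. V1 and V2 are the highest in the members' share (1.52% and 1.82%), in Stat3 and in Prtn3, and the macrophage sum is higher in all 4 Con-Veh libraries. V1 and V2 were highest in 4 of 25 signalling genes (16.0%), Stat3 among them. In Socs3, Csf3r and Ltf, not drawn, they were not the 2 highest.

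The genes whose log2 values most resembled the mean of Saa1, Saa2 and Lcn2 over the 8 libraries, among 10716 other genes with a mean of at least 50, were Ap1g2 (Pearson r = 0.992), C4b (0.974), Serpina10 (0.973), Clu (0.968) and Lrg1 (0.966). These are the top of a ranking by likeness over 8 libraries that share the same normalization, and no test applies to them. C4b encodes complement C4 and was at 56004, 63401, 25970 and 28035 in Con-Veh and at 24521, 25917, 34319 and 18120 in Con-DHT. Lrg1, a leucine-rich acute phase glycoprotein, was at 22767, 26591, 5810 and 7319 and at 6173, 6226, 10079 and 5996, and Clu, the extracellular chaperone clusterin, at 35645, 37268, 25446 and 25226 and at 26297, 23560, 29134 and 22755. Ap1g2, an adaptor subunit of vesicle traffic, spanned only 162 to 227. Con-DHT replicate 3 was the next highest after Con-Veh replicates 1 and 2 in each of the 5 genes, as it was in Saa1, Saa2, Orm1, Orm2, Lcn2, Hp and Hpx.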

How the data were processed

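Liver RNA of female mice, 4 Con-Veh and 4 Con-DHT, was sequenced, with 1 library per mouse, and the labels gave groups and replicate numbers. Per the study's methods and the submitters' processing notes, the authors trimmed reads with Trimmomatic, aligned them with STAR (build GRCm39), counted unique reads in exons with featureCounts and used DESeq2. The deposited values are a normalized signal, reads divided by 1 size factor per library, and no other scaling was applied for the main test. Dividing each column by its smallest step gave whole reads for 100% of values (tolerance 0.01), which edgeR and DESeq2 used as alternatives. Of 14371 features, 54 were spike-in rows and were left out. 3 reads correspond to values of 2.61 to 3.30.

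The main test was limma 3.58.1 (R 4.3.3, empirical Bayes with an intensity trend) on log2(value + 1) for genes with a mean of at least 10, so that folds of low genes are understated, with Benjamini-Hochberg adjustment over all of them. Single values used exact two-sided permutation, for which the smallest p is 0.029. P-values measure the spread between these mice. edgeR 4.0.16 (quasi-likelihood, TMM) and DESeq2 1.42.0 (Wald) were alternatives, as were other pseudocounts, filters and scalings, array weights, a replicate block and leaving out libraries. Scripts were tested on simulated data. Transcript lengths and identities came from GENCODE M21, promoters from RefSeq, and figures from Python 3.11.15 with matplotlib 3.10.9.

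The members and gene lists were chosen with earlier results of these data known. Named from each list were the genes that passed and the 2 others with the largest fold change, all members, all neutrophil genes and the 5 genes most like Saa1, Saa2 and Lcn2. Same-numbered libraries of the groups were not from the same mice, and their deviations did not go together. The values of 1 signalling gene that passed are not reported here.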

Additional observations from a re-analysis of the deposited data

Results flagged for a closer look

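In the 53 named genes, 106 groups of 4 libraries were examined for 1 library far from the others by Dixon's gap over range at the 95% level, and 7 were found, where chance gives about 1 in 20. Among the members, Hpx was high in Con-DHT replicate 3 (51817, gap over range 0.954), Saa4 was high in Con-Veh replicate 2 (10888, 0.939) and A2m was low in Con-DHT replicate 1 (15.7, 0.846). Lrg1 was high in Con-DHT replicate 3 (10079, 0.927), the library with the highest Saa1 and Saa2 of its group. Vsig4 (389, 0.912) and Il1a (47.1, 0.832) were high in Con-DHT replicate 1, and Fpr2 was high in Con-Veh replicate 1 (26.4, 0.830). With 2 high and 2 low libraries in Con-Veh, Saa1, Saa2, Orm2 and Lcn2 cannot be found this way, since the gap lies in the middle.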

How the results depend on the processing

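The signs of Saa1 (1.16), Saa2 (0.15), Orm1 (0.082), Orm2 (0.037) and Lrg1 (0.090) reversed without Con-Veh replicates 1 and 2, and that of Saa1 (0.44) also without Con-DHT replicate 3. Alb reversed under quantile normalization (0.13) and Ap1g2 under spike-in scaling (0.017). The other members kept their sign in every alternative.

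Of the 10 members, limma called 0 with all libraries, 1 (A2m) with array weights and 1 without Con-Veh replicates 1 and 2; edgeR called 1 and DESeq2 3, and leaving out 1 library gave 0 to 1 (Apcs or A2m). Spike-in scaling, which moved the median log2 fold change of all genes to 0.188, called 6 members, but there limma's prior degrees of freedom were infinite (Inf, against 4.20), so that each gene took the trend's variance and the spread of Saa1 among mice was not used.

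All genes called numbered 1032, and 648 with a mean of at least 50, 637 with spike-in scaling, 1569 with DESeq2, 633 to 905 without 1 library, 510 without Con-Veh replicates 1 and 2 and 424 without Con-DHT replicate 3 as well. The other positive acute phase genes gave 14 calls with DESeq2, 3 to 8 without 1 library, and 4 without Con-Veh replicates 1 and 2, with or without Con-DHT replicate 3. The negative ones gave 5 with DESeq2 and 0 with spike-in scaling, with the block and without Con-Veh replicates 1 and 2, with or without Con-DHT replicate 3. The signalling genes gave 4 with DESeq2, 0 to 1 without 1 library and 0 with a mean of at least 50, quantile, upper quartile or spike-in scaling, no trend, or the block. The uptake genes gave 1 with a mean of at least 50, spike-in scaling, edgeR or without Con-Veh replicates 1 and 2, 0 with the block or also without Con-DHT replicate 3, and 0 to 2 without 1 library. The alpha macroglobulins gave 2 with DESeq2, 0 to 1 without 1 library and 0 with spike-in scaling, the block, or either set of libraries left out. The neutrophil genes gave 1 with spike-in scaling, 1 with DESeq2 (Prtn3, lower) and 0 to 1 without 1 library. They gave 1 without all 3 libraries, Ltf, which was higher in Con-DHT (log2 fold change 1.74, limma adjusted p = 0.048). The macrophage markers gave 5 to 8 without 1 library, 1 without Con-Veh replicates 1 and 2, and 0 without all 3 or with spike-in scaling. The cause of these changes was not tested.

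The replicate number as a block gave 700 calls over all genes and 0 members. Same-numbered libraries' deviations correlated at -0.186, -0.006, -0.022 and -0.076, and those of the other pairs at -0.156 to 0.256. Such correlations cannot show whether mice were paired. Alternatives that leave out 2 or 3 libraries and the spike-in scaling were chosen after seeing the data. A2m, Lrp2, Prtn3 and Ltf rest on few reads.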

Other observations

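Besides Lcn2, Orm2, Apcs and Orm1, 13 genes had both Con-Veh replicates 1 and 2 above 2 times every other library, and they were chosen here after their values were seen. Of these, 3 are acute phase genes (Fgl1, Lrg1 and Mt2) and 1 is Prtn3, and 9 were in no list: Cyp3a16, Cyp3a41a, Slc3a1, Kcnt2, Bmper, Slc41a2, Slc13a3, Cyp21a2-ps and Gm45774. The most extreme was Cyp3a16, a cytochrome P450, at 240 and 234 in Con-Veh replicates 1 and 2, 19.0 and 26.98 in replicates 3 and 4, and 8.83, 1.94, 0 and 1.09 in Con-DHT. Cyp3a41a was at 204, 239, 37.9 and 20.9 in Con-Veh and at 14.7, 1.94, 1.02 and 1.09 in Con-DHT. Both have close paralogs among the Cyp3a genes, between which reads can be split.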
